A study of Rattus norvegicus with 53 samples.

Results

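The step from hour 1 to hour 2 of the untreated control culture was described on 6 of the 53 arrays of the series, chosen by their titles: 3 arrays of hour 1 and 3 of hour 2, paired by the letter (a, b or c) of the repeat. The cells were L6 rat myotubes, multinucleated cells that form when L6 myoblasts, a rat muscle line, fuse and differentiate in low serum, and not mature muscle fibres. After a serum-free pre-incubation the medium was replaced at time 0 by fresh serum-free DMEM, with 0 nM insulin in the control culture and 20 nM insulin in its companion. RNA collected at 20, 40 and 60 min was pooled as hour 1 and RNA of 80, 100 and 120 min as hour 2, and the experiment was repeated on different days. The letters are taken here to mark these repeats, since the labels give the letters without saying what they stand for. Each time sample came from a plate of its own, so a difference between hours is a difference between plates.

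A change of medium is a stimulus of its own, since fresh medium carries nutrients, washes away secreted factors and disturbs the cell surface. Immediate early genes, which encode transcription factors and signalling regulators and are switched on without new protein synthesis, respond to such stimuli within minutes, and their messenger RNAs are short-lived. In resting muscle cells without insulin, FOXO transcription factors are active and drive genes such as *Pdk4* that spare glucose. An array measures the amount of each messenger RNA, not its synthesis or its decay, and neither rate was measured here.

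Between hours 1 and 2 few messenger RNAs passed the test. Of 22143 probe sets tested, 17 (0.0768%) were called lower and 13 (0.0587%) higher at hour 2 by limma with the repeat letter as a block and a Benjamini-Hochberg adjusted p under 0.05. Counting each gene once, by its brightest probe set, 15 of 11631 genes (0.129%) fell and 8 (0.0688%) rose. The falls comprised the immediate early genes *Egr1*, *Ier3*, *Plk2* and *Ptgs2*, the feedback inhibitors of ERK signalling *Dusp1*, *Dusp6* and *Spry2*, the matricellular and junctional genes *Ccn1* and *Amotl2*, the secreted factors *Cxcl1*, *Inhba* and *Edn1*, and *Epha2*, *Cited2* and *Sertad1*. The rises were those of *Pdk4*, *Txnip*, *Nr1d1*, *Hoxa9*, *Nfkbia*, *Mylip*, *Mnt* and *Klf11*.

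**Figure D1:**
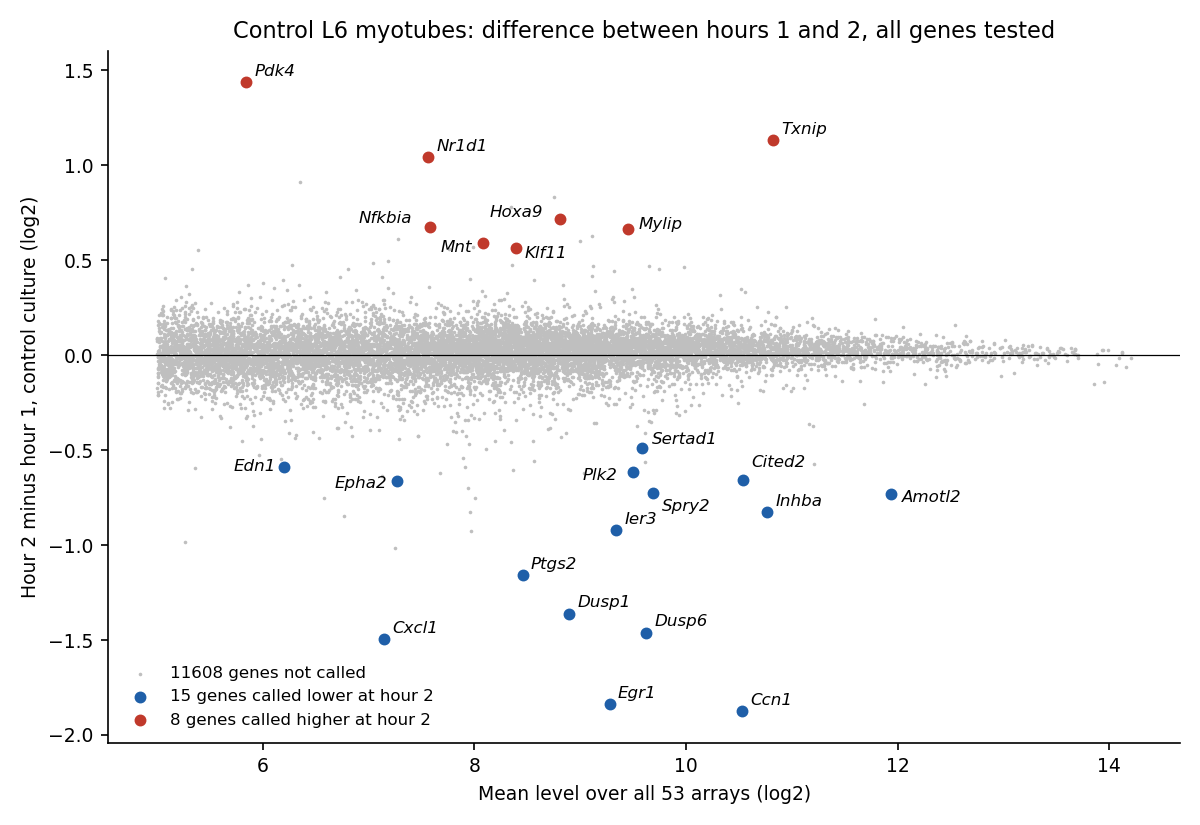
Each point is 1 of the 11631 genes, by its mean level over all 53 arrays (x axis, log2) and its difference between hour 2 and hour 1 of the control culture (y axis, log2), with blue for the 15 genes called lower and red for the 8 called higher. Grey points form a band centred near 0, and the called falls reach −1.88 while the called rises reach 1.44. Some grey points, such as *Egr2* at −0.98, lie farther from 0 than called genes such as *Sertad1* at −0.49.

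The size of the changes was modest. Only 10 genes differed by more than 1 on the log2 scale, 4788 genes lay below 0 and 6843 above, and the median over all genes was 0.018. With 3 arrays on each side, 165 genes (1.42%) were lower and 182 (1.56%) higher without any overlap between the hours. Of the 30 called probe sets 25 did not overlap, a share that follows from their choice by the difference between these same arrays. These calls lean on the pairing by letter: without the block *Ccn1*, *Cited2* and *Nfkbia* were called among the 23 genes, and with 1 repeat left out 8 were called without a, 10 without b and 12 without c. *Cited2*, *Inhba* and *Txnip* were called whichever repeat was left out, and no setting turned the direction of any of the 23 genes. A fit of the 6 arrays of hours 1 and 2 alone called more, 94 probe sets lower and 51 higher, from 2 residual degrees of freedom.

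*Ccn1* and *Egr1* fell most. *Ccn1*, a secreted matricellular protein induced by serum and by cell stretch, stood at 11.80, 11.58 and 11.58 (log2 level, repeats a, b and c) at hour 1 and at 9.80, 9.93 and 9.62 at hour 2. Every hour 2 array lay far below every hour 1 array, a difference of −1.88 ± 0.25 (log2, SE), 3.67-fold lower (adjusted p = 0.000533). *Egr1*, a zinc finger transcription factor of the immediate early response, went from 10.68, 11.17 and 11.24 to 9.19, 9.26 and 9.13. The 3 hour 2 values of *Egr1* had an SD of 0.07, and the fall was 3.57-fold (−1.84 ± 0.30, adjusted p = 0.00565). Its relative *Egr2* had values of 6.07, 6.42 and 6.82 at hour 1 and 5.07, 5.72 and 5.57 at hour 2, which did not overlap, but the difference of −0.98 ± 0.24 did not pass (adjusted p = 0.274).

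The ERK pathway relays growth factor signals to the nucleus and is braked by genes that it induces itself. Dual-specificity phosphatases remove the activating phosphates from MAP kinases, and Sprouty proteins act further upstream. *Dusp6*, the phosphatase most selective for ERK, had values of 10.33, 10.86 and 11.35 at hour 1 and 9.13, 9.45 and 9.57 at hour 2. It fell in each repeat, with a difference of −1.46 ± 0.26 (adjusted p = 0.0151), and its 2 other probe sets fell too, at −1.64 and −1.74 (adjusted p = 0.0485 and 0.0327). *Dusp1*, which acts on p38 and JNK as well, stood at 10.50, 9.95 and 10.09 at hour 1 and at 9.02, 9.18 and 8.26 at hour 2. The difference was −1.36 ± 0.22 (adjusted p = 0.00554) and was deepest in repeat c, while a dimmer probe set differed by −1.06 without passing (adjusted p = 0.503). *Spry2* fell by 0.72 ± 0.12 (adjusted p = 0.00565), from 10.53, 9.90 and 10.43 to 9.74, 9.41 and 9.53. Of the 16 measured genes of this feedback list 3 fell (against 0.129% of all genes) and none rose. Below 0 lay 13 of them, against 4788 of all 11631 genes, and the median was −0.23 against 0.018 over all genes. This list and those below were drawn up with earlier results of these data known. *Spry4*, at −0.75 ± 0.16, came close (adjusted p = 0.0822), and *Spry1* was at −0.43 ± 0.16 (adjusted p = 1.0). Both were lower at hour 2 without overlap, as were 5 of the 16 genes against the 1.42% of all genes.

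Among 36 other immediate early genes 3 fell (against 0.129% of all genes) and none rose. Below 0 lay 28 of them, against 4788 of all 11631 genes, with a median of −0.20. *Ptgs2*, the inducible cyclooxygenase of prostaglandin synthesis, went from 8.93, 9.19 and 9.37 to 8.21, 8.01 and 7.79 (−1.16 ± 0.22, adjusted p = 0.0238). *Ier3*, a short-lived regulator of cell survival, fell by 0.92 ± 0.18 (adjusted p = 0.0342), and *Plk2*, a polo-like kinase, by 0.61 ± 0.11 (adjusted p = 0.0100). In 8 of the 36 genes the hours did not overlap and hour 2 was the lower one, against 1.42% of all genes. Apart from those 3, these were *Ier2* (−0.93 ± 0.25, adjusted p = 0.479), *Phlda1* (−0.75 ± 0.22, adjusted p = 0.773), *Zfp36l2*, *Mcl1* and *Pim3*. *Hbegf* differed more than *Ier3* and *Plk2*, at −1.02 ± 0.25, but its hours overlapped and it was not called (adjusted p = 0.274). The list had no gene in which hour 2 was the higher one without overlap.

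The Fos and Jun families form AP-1, the classical immediate early transcription factor. None of 9 measured subunits was called, 3 lay below 0 and 6 above, and the median was 0.07. *Fos* had a mean level of 6.46 at hour 1 and 6.60 at hour 2 (difference 0.14 ± 0.16), and *Jun* 10.67 and 10.77 (0.11 ± 0.10), both with an adjusted p of 1.0. The members that differed most were *Fosl1* at −0.54 ± 0.24 and *Atf3* at 0.49 ± 0.14 (adjusted p = 1.0 and 0.773). Of the 10 genes of the Egr, Nr4a and Srf list *Egr1* alone was called (0.129% of all genes fell), and *Srf* itself was at −0.12 ± 0.11 (adjusted p = 1.0). *Myc*, another short-lived transcript, had a mean of 8.61 at hour 1 and 7.78 at hour 2, but went only from 7.97 to 7.68 in repeat a. The hours did not overlap, yet the difference of −0.83 ± 0.30 was not called (adjusted p = 1.0).

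Other falls were of genes of the cell surface and the matrix. *Amotl2*, an angiomotin of cell junctions that binds YAP, was among the brightest of them, at 12.32, 12.10 and 12.60 at hour 1 and 11.55, 11.58 and 11.70 at hour 2 (−0.73 ± 0.10, adjusted p = 0.00122). *Edn1*, the vasoactive peptide endothelin-1, fell by 0.59 ± 0.11 (adjusted p = 0.0251). Together with *Ccn1* these were the 3 of 23 measured genes on a list of SRF and YAP targets that fell, and 20 were not called. Over all genes 0.129% fell. The cytoskeletal genes of that list stayed near 0, such as *Tagln* (0.00 ± 0.05) and *Actg1* (−0.06 ± 0.03), and the list median was −0.04. *Ccn2*, a close relative of *Ccn1*, was at −0.15 ± 0.05 (adjusted p = 0.966).

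*Inhba*, the subunit of the TGF-beta family ligand activin A, showed what the pairing by letter brought. Its level was 10.95, 11.53 and 12.06 at hour 1 and 10.15, 10.72 and 11.20 at hour 2. The repeats differed more than the hours, so the groups overlapped, yet the fall within each repeat was nearly the same and the difference was −0.83 ± 0.10 (adjusted p = 0.000403). *Epha2*, a receptor of the ephrin family, and *Sertad1*, a regulator of the cell cycle, fell in the same overlapping way, by 0.66 ± 0.13 and 0.49 ± 0.10 (adjusted p = 0.0357 and 0.0359). *Cited2*, a transcriptional co-regulator that competes with HIF-1 for p300, went from 11.22, 11.06 and 11.25 to 10.65, 10.59 and 10.32 (−0.66 ± 0.08, adjusted p = 0.000403). Of 18 genes of the TGF-beta and Id list *Inhba* was the single call (0.129% of all genes fell), and *Id1* (−0.70 ± 0.31) and *Id3* (−0.62 ± 0.39) had adjusted p of 1.0.

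**Figure D2:**
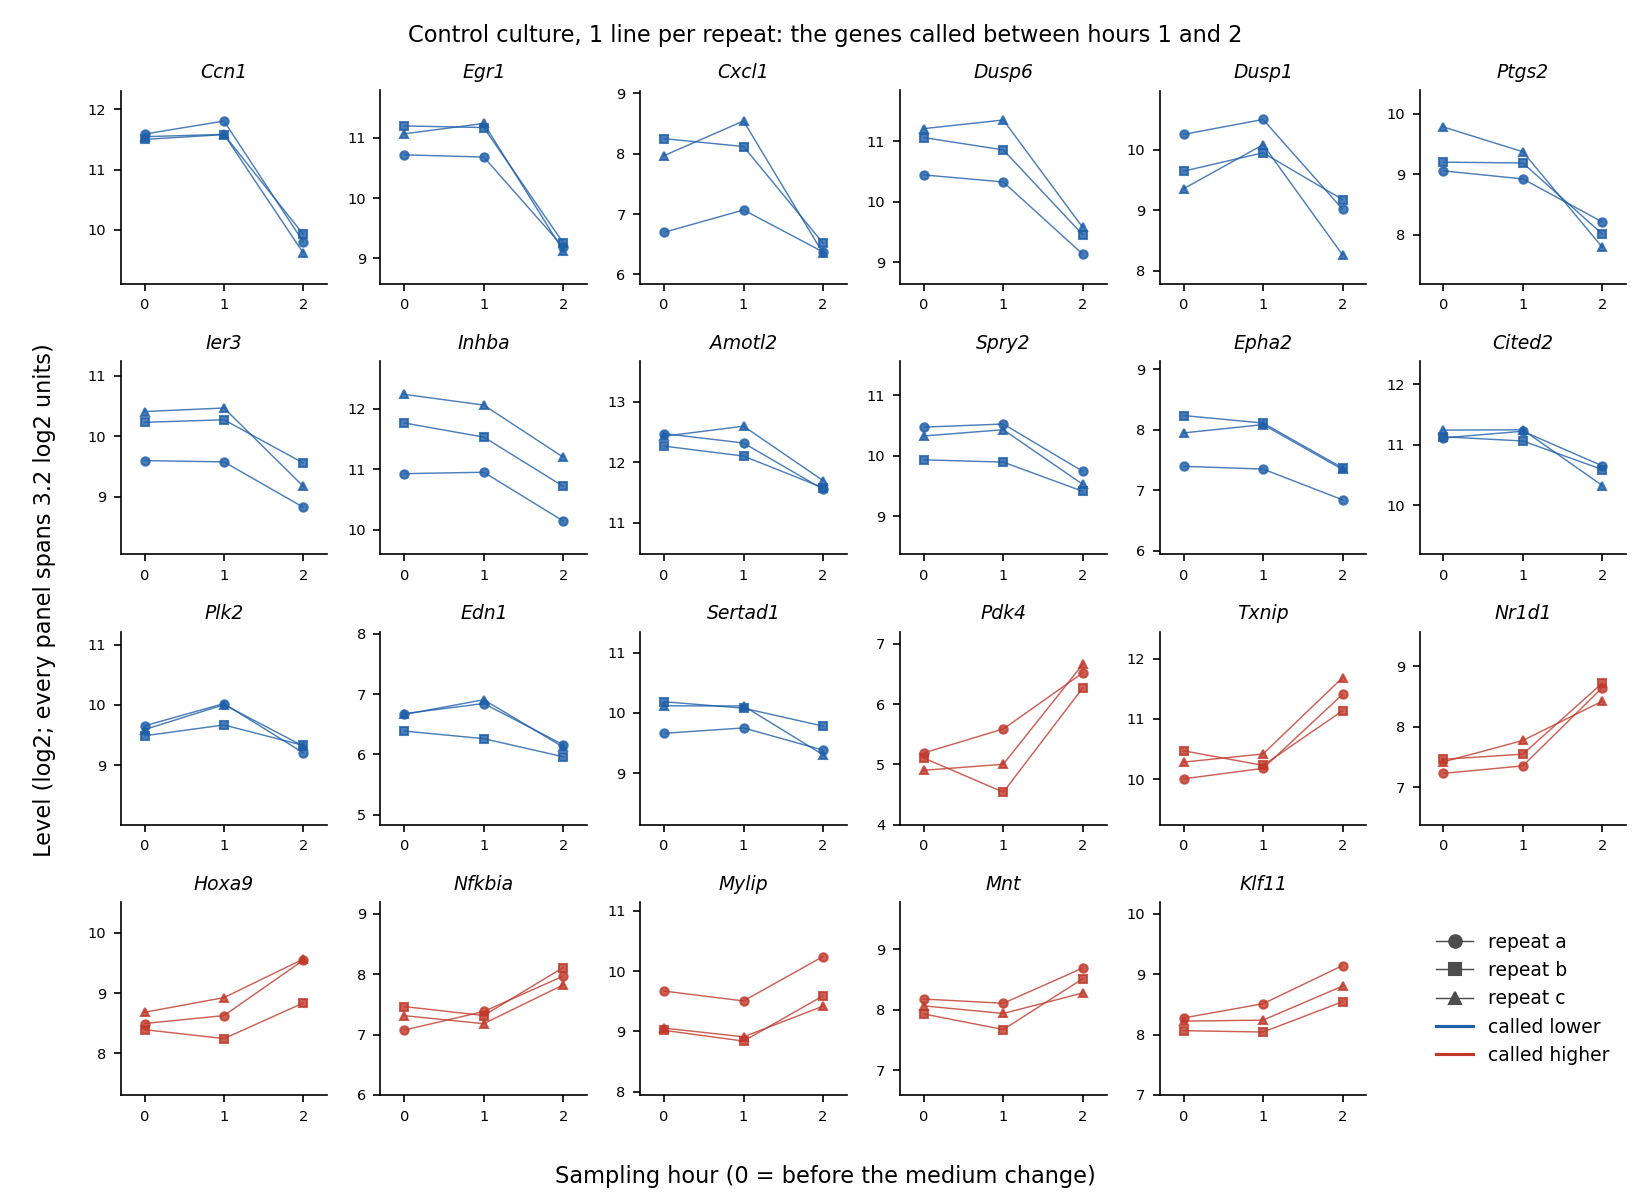
Level (y axis, log2, every panel spanning the same range) in the control culture at time 0, hour 1 and hour 2 (x axis), 1 line for each repeat, for the 15 genes called lower (blue) and the 8 called higher (red). The lines are nearly flat between time 0 and hour 1 in most panels and turn between hours 1 and 2, and *Inhba* shows 3 parallel lines at different heights.

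NF-kappaB drives inflammatory genes and also its own inhibitor, so the list of its regulators and outputs is a mixed one. Here it held 1 fall and 1 rise among 24 measured genes, against 0.129% and 0.0688% of all genes. *Cxcl1*, a chemokine that attracts neutrophils, was at 7.07, 8.12 and 8.54 at hour 1 and at 6.37, 6.52 and 6.35 at hour 2. The 3 hour 2 values were close to each other while hour 1 was spread, with repeat a lowest, and the difference was −1.49 ± 0.29 (adjusted p = 0.0327). *Nfkbia*, which encodes the inhibitor IkappaB-alpha, moved the other way, from 7.38, 7.32 and 7.18 to 7.97, 8.11 and 7.82 (0.67 ± 0.11, adjusted p = 0.00565). The list median was −0.01, and *Tnfaip3*, another inhibitor of the pathway, was at −0.59 ± 0.21 (adjusted p = 1.0).

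*Pdk4* and *Txnip* rose most. *Pdk4*, the kinase that shuts pyruvate dehydrogenase and so spares glucose, was at 5.59, 4.54 and 5.00 at hour 1 and at 6.52, 6.27 and 6.66 at hour 2. The rise was 1.44 ± 0.25 or 2.71-fold (adjusted p = 0.0104) from a level near the filter on dim probe sets (5, log2), and a dimmer probe set of *Pdk4* differed by 0.05 (adjusted p = 1.0). *Txnip*, which binds thioredoxin and restrains glucose uptake, went from 10.18, 10.23 and 10.42 to 11.41, 11.13 and 11.68. It rose by 1.13 ± 0.13 or 2.19-fold and had the smallest adjusted p of all genes (0.000132). On the list of 26 FOXO targets these were the 2 rises, *Cited2* was the 1 fall, and the median was 0.07. Over all genes 0.0688% rose and 0.129% fell. Several members lay above 0 without passing, such as *Bcl2l11* (0.83 ± 0.28), *Ccng2* (0.60 ± 0.21) and *Cdkn1b* (0.35 ± 0.08), with adjusted p of 0.990, 1.0 and 0.150. The atrophy ligase *Trim63* was at −0.06 ± 0.13. Of 15 genes of glucose transport and phosphorylation *Txnip* alone was called, and its fellow arrestin-domain genes *Arrdc3* and *Arrdc4* were at 0.78 ± 0.31 and 0.55 ± 0.16 (adjusted p = 1.0 and 0.666). The insulin-responsive glucose transporter *Slc2a4* was at 0.05 ± 0.08.

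*Nr1d1*, the haem-binding repressor REV-ERB-alpha of the circadian clock, rose from 7.35, 7.54 and 7.77 to 8.65, 8.72 and 8.42. This rise of 1.04 ± 0.14 or 2.06-fold (adjusted p = 0.00091) was the one call among 16 clock genes, whose median was 0.07. Over all genes 0.0688% rose. *Nr1d2* and *Dbp*, both driven by the same clock activators, were higher at hour 2 without overlap at 0.26 ± 0.11 and 0.27 ± 0.11 but not called (adjusted p = 1.0), and *Per1*, *Per2* and *Bmal1* were at 0.08 ± 0.11, 0.12 ± 0.08 and −0.05 ± 0.13. Of the remaining rises 3 were transcription factors. *Klf11*, a repressor of the Kruppel-like family, rose by 0.57 ± 0.09 (adjusted p = 0.00381), from 8.51, 8.04 and 8.24 to 9.14, 8.54 and 8.80, while its dimmer probe set stood at 0.34 (adjusted p = 0.795). *Klf10*, its nearest relative, was at 0.63 ± 0.19 (adjusted p = 0.773). *Mnt*, a repressor that opposes Myc at shared sites, rose by 0.59 ± 0.10 (adjusted p = 0.00577), and *Hoxa9* by 0.72 ± 0.13 (adjusted p = 0.0121). *Mylip*, the ubiquitin ligase IDOL that degrades the LDL receptor, rose by 0.66 ± 0.09 (adjusted p = 0.000533). In *Mylip* and *Hoxa9* the hours overlapped although every repeat rose.

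For 21 of the 23 genes, *Ier3* and *Txnip* being the others, RefSeq promoter windows of 300 bases (250 before to 50 after the start of the gene, build GRCr8) were searched on both strands for 10 motifs. Of these genes 2 had more than 1 window. A gene was counted if any of its windows matched, while the percentages are shares of windows. The cAMP response element TGACGTCA, found in 1.83% of 33469 windows, occurred in 3 of the genes that fell and in none that rose. The E-box CACGTG (6.42%) occurred in *Cited2*, *Dusp1* and *Ptgs2* and in *Hoxa9*, *Klf11*, *Mnt* and *Nr1d1*, and the NF-kappaB site (7.51%) in *Cxcl1* and *Sertad1* and in *Nfkbia* and *Nr1d1*. The CArG box (1.64%), at which Srf binds, occurred in *Egr1* alone. The AP-1 site TGANTCA (7.33%) and the C/EBP-ATF site TGATGCAA (0.795%) occurred in none of the 21, the Egr site GCGGGGGCG (2.73%) in *Mnt*, where it overlaps a GC box, and the forkhead site GTAAACA (3.78%) in *Edn1*. The GC box GGGCGG (33.1%) and the TATA box TATAAA (14.2%) occurred in 15 and 6 genes. The windows of the 3 genes that share the cAMP response element are shown first, and then those of *Cxcl1* and *Nfkbia*, which carry NF-kappaB sites and moved in opposite directions. Capitals mark the cAMP response element in *Dusp1*, *Plk2* and *Epha2*, the E-box after it in *Dusp1*, and the NF-kappaB site in *Cxcl1*, where 2 matches on opposite strands overlap, and in *Nfkbia*.
Dusp1 (chr10:17184603-17184902, + strand): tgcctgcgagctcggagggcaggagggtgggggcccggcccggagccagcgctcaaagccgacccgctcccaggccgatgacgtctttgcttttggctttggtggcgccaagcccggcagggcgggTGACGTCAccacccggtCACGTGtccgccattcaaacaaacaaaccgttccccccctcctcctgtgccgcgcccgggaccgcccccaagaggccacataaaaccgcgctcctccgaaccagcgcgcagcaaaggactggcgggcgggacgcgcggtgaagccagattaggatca
Plk2 (chr2:43702286-43702585, + strand): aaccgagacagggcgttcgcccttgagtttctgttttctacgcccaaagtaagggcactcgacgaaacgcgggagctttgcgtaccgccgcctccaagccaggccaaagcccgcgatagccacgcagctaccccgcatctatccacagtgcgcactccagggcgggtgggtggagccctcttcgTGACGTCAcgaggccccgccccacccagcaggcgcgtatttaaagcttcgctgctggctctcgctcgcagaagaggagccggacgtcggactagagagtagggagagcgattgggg
Epha2 (chr5:158888379-158888678, + strand): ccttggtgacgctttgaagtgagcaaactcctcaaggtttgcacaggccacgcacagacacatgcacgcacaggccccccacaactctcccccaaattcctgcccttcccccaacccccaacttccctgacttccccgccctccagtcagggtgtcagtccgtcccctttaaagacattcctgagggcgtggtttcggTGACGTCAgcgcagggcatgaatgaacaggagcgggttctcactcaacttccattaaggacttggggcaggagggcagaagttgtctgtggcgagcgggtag
Cxcl1 (chr14:17479272-17479571, - strand): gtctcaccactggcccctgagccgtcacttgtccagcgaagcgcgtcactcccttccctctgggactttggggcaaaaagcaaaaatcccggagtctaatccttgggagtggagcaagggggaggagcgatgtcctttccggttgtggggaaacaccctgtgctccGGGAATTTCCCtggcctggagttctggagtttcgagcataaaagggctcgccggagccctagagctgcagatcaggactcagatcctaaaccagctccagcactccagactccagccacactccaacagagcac
Nfkbia (chr6:78597023-78597322, - strand): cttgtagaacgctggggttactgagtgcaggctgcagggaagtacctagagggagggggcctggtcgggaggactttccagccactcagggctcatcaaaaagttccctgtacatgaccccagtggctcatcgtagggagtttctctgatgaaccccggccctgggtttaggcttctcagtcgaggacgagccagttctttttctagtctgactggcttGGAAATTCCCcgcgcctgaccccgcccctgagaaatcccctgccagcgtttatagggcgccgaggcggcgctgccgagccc
The element began 124 bases before the start in *Dusp1*, 66 in *Plk2* and 52 in *Epha2*. A match of letters describes the window and does not show that a factor bound there.

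Of the genes called at hour 2, none had been called in the hour before. Between time 0 and hour 1 no probe set was called by limma (545 had an unadjusted p under 0.05), and in *Egr1*, for example, the mean was 10.99 at time 0 and 11.03 at hour 1. The largest differences from time 0 to hour 1 among the genes that fell were those of *Dusp1* (0.43) and *Plk2* (0.32). Measured against time 0 instead, with which the comparison shares the hour 2 arrays, all 15 falling genes were lower and 11 were called, against 16 genes (0.138%) called lower in all. All 8 rising genes were higher than at time 0 and 7 were called, against 14 genes (0.12%) in all. Not called were *Cxcl1*, *Dusp1*, *Edn1* and *Plk2* (adjusted p = 0.114, 0.0969, 0.0878 and 0.536) and *Mnt* (0.0764). Hour 2 thus lay beyond time 0 as well as beyond hour 1 in all 23 genes, with the smallest distance to time 0 in *Plk2* (−0.29).

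The later arrays showed how long the new levels lasted. They do not enter the difference of means between hours 1 and 2. They do share its fit, and so its estimate of the spread and its calls. The mean of hours 3 to 8 was compared with time 0 in the same fit, a test added after the values had been seen. Of the 15 genes that fell at hour 2, 14 were called lower than at time 0 over these later hours and the other, *Plk2*, was at −0.17 (adjusted p = 0.160). Of the 8 that rose, 7 were called higher and *Mnt* was at 0.09 (adjusted p = 0.460). Over all genes 770 (6.62%) were called lower and 1250 (10.7%) higher in that comparison, which sets 18 arrays against 3 and so is more precise than that of hour 2 with time 0.

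After hour 2, 14 of the 15 falling genes had a lower mean at hour 3 than at hour 2, by widely different amounts. *Egr1* had a mean of 8.18 at hour 3 and then lay between 8.17 and 8.45 to hour 8, which put it 2.73 below time 0. The next largest steps were those of *Inhba* (10.69 at hour 2 and 9.72 at hour 3), *Dusp6* (9.39 and 8.83), *Cited2* (10.52 and 10.06) and *Epha2* (7.18 and 6.83), and the smallest was that of *Sertad1* (9.49 and 9.46). These later steps were not tested one by one. *Ccn1* was already within its later range at hour 2, at 9.78 against 9.54 to 10.27 in hours 3 to 8. *Cxcl1*, the exception, had its lowest mean at hour 2 (6.41) and lay between 6.48 and 6.99 afterwards. *Inhba* was lowest at hour 3 and stood at 10.24 at hour 8, still below its 11.65 at time 0.

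The rising genes fell into those that kept their level and those that passed through a peak. *Pdk4* was at 6.48 at hour 2 and at 6.91 at hour 8, its highest mean, and *Mylip* likewise peaked at hour 8 (9.97). *Txnip* peaked at hour 3 (11.67) and stayed between 11.15 and 11.67 to hour 8, far above its 10.26 at time 0. *Nr1d1* peaked at hour 2 (8.60), was at 8.28 at hour 3 and 7.65 at hour 4, and ended at 7.47, close to the 7.37 of time 0. *Nfkbia* peaked at hour 2 (7.97) and then lay between 7.52 and 7.69, and *Mnt* peaked at hour 2 (8.49) and was at 8.08 by hour 4. *Hoxa9* also had its highest mean at hour 2 (9.32), but was at 8.81 at hour 6 and back at 9.23 at hour 8. *Klf11* was highest at hour 3 (8.86) and ended at 8.66, above its 8.19 at time 0.

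**Figure D3:**
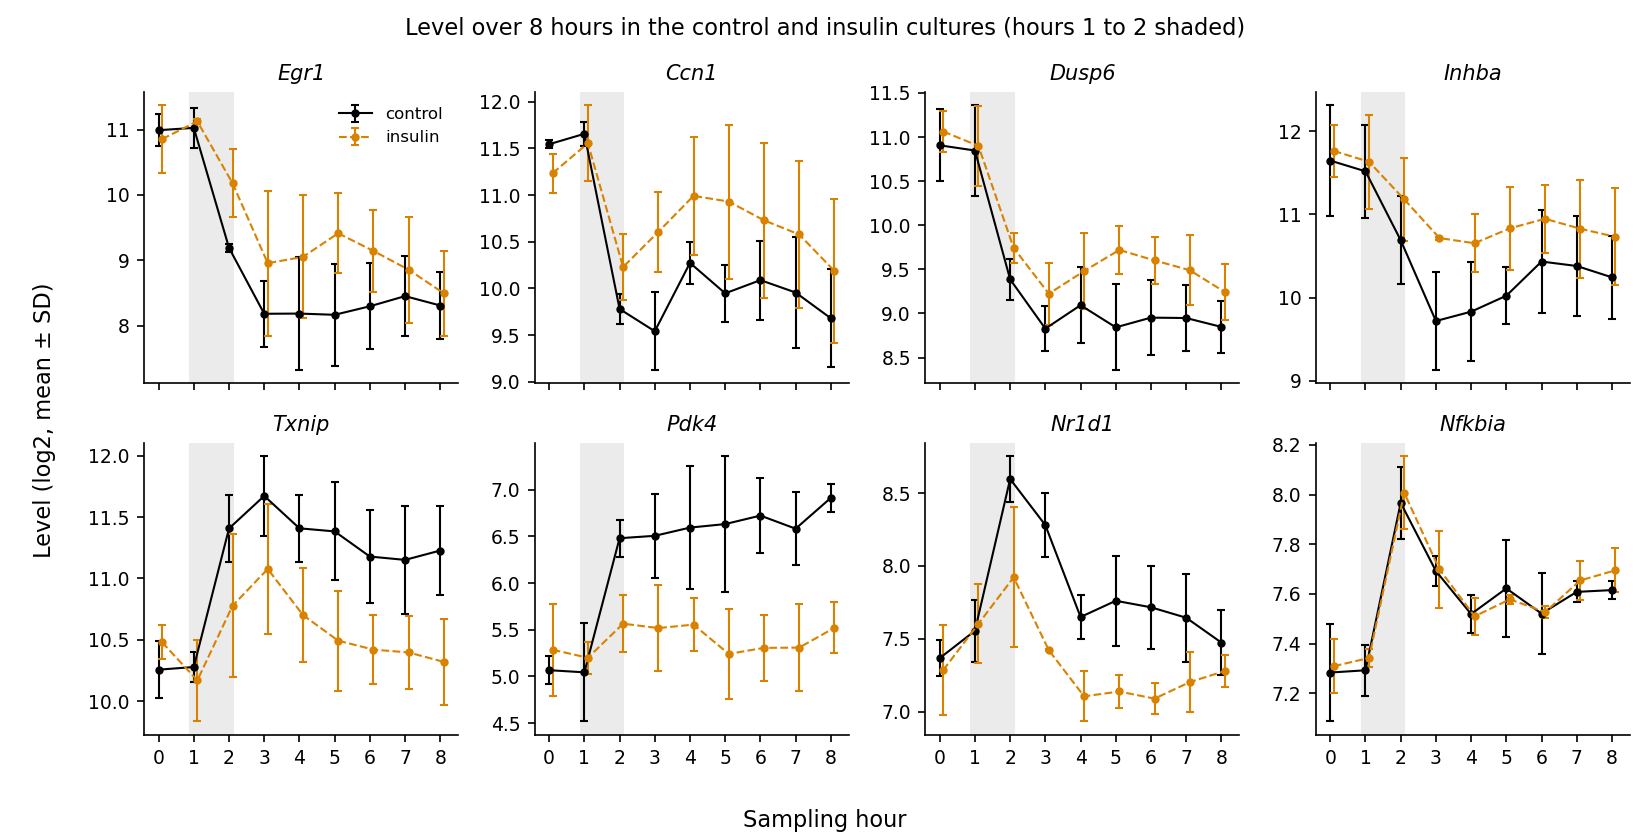
Mean level ± SD (y axis, log2, scaled to each panel) of 8 of the called genes at time 0 and hours 1 to 8 (x axis), in the control culture (black) and the insulin culture (orange, shifted slightly to the right), with 3 arrays a point except 2 for insulin at hour 3 and hours 1 to 2 shaded. In the control culture *Egr1*, *Ccn1*, *Dusp6* and *Inhba* drop at hour 2 and lie below time 0 to hour 8, *Txnip* and *Pdk4* lie above it, and *Nr1d1* and *Nfkbia* peak at hour 2.

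The same step was then read in the insulin culture, which had its own plates and DMEM with 20 nM insulin. There 9 genes (0.0774%) were called lower and 5 (0.043%) higher between hours 1 and 2, and 8 of these 14 were also called in the control culture, whose calls come from its own 27 arrays. The insulin calls come from a fit of all 53 arrays, those 27 included. The 2 sets of calls thus share part of their estimate of the spread. Fitted with all 53 arrays like the insulin step, *Edn1* was not called in the control culture (adjusted p = 0.0564). All 15 genes that fell in the control culture were below 0 and all 8 that rose were above 0 in the insulin culture. This counts signs only, and some of these steps were small beside their SE, such as *Mnt* at 0.06 ± 0.09 and *Epha2* at −0.15 ± 0.14. The falls called in both cultures were those of *Ccn1*, *Dusp1*, *Spry2*, *Cited2*, *Edn1* and *Amotl2*, and the rises those of *Nfkbia* and *Mylip*. The 2 steps of *Nfkbia* were nearly equal at 0.67 ± 0.11 without and 0.67 ± 0.10 with insulin. *Dusp1* was at −1.36 ± 0.22 without and −1.63 ± 0.21 with insulin.

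No difference between the steps of the cultures was called. The step with insulin was smaller for 11 of the 15 falling genes (median −0.75 with and −0.83 without insulin) and for all 8 rising genes (0.39 and 0.70). Since these genes were picked for their change in the control culture, a smaller median in the other culture is not a result about insulin. *Pdk4* rose by 1.44 in the control culture and was at 0.37 ± 0.26 in the insulin culture, a difference of steps of −1.07 ± 0.36. The corresponding difference was −0.72 ± 0.23 for *Nr1d1*, −0.53 ± 0.13 for *Mnt*, −0.52 ± 0.21 for *Txnip* and 0.89 ± 0.47 for *Egr1*. Tested across all probe sets in limma, the difference of the steps was called for 0 genes (0.0%), with an adjusted p of 1.0 throughout and 292 probe sets at an unadjusted p under 0.05. The median SE of that difference was 0.15. A fit with a further block for each letter and hour, shared by the cultures and added after the values had been seen, called 0 genes as well (smallest adjusted p 0.201, of *Hes1*, and 382 probe sets at an unadjusted p under 0.05). Within letters a, b and c the difference of steps was −0.90, −1.44 and −0.87 for *Pdk4* and −0.55, −0.81 and −0.21 for *Mnt*.

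Called in the insulin culture and not in the control culture were falls of *Sgk1*, *Irs2* and *Ccn2* and rises of *Ddit4*, *Hes1* and *Klf10*. *Irs2*, an adaptor of the insulin receptor repressed by insulin, was at −0.59 ± 0.11 with insulin and −0.04 ± 0.10 without. *Klf10* and *Ddit4* stood at 1.15 ± 0.17 and 0.88 ± 0.18 with insulin and were also above 0 without it, at 0.63 ± 0.19 and 0.61 ± 0.18. The difference of the steps was not called for any of these 6 genes (adjusted p = 1.0).

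**Figure D4:**
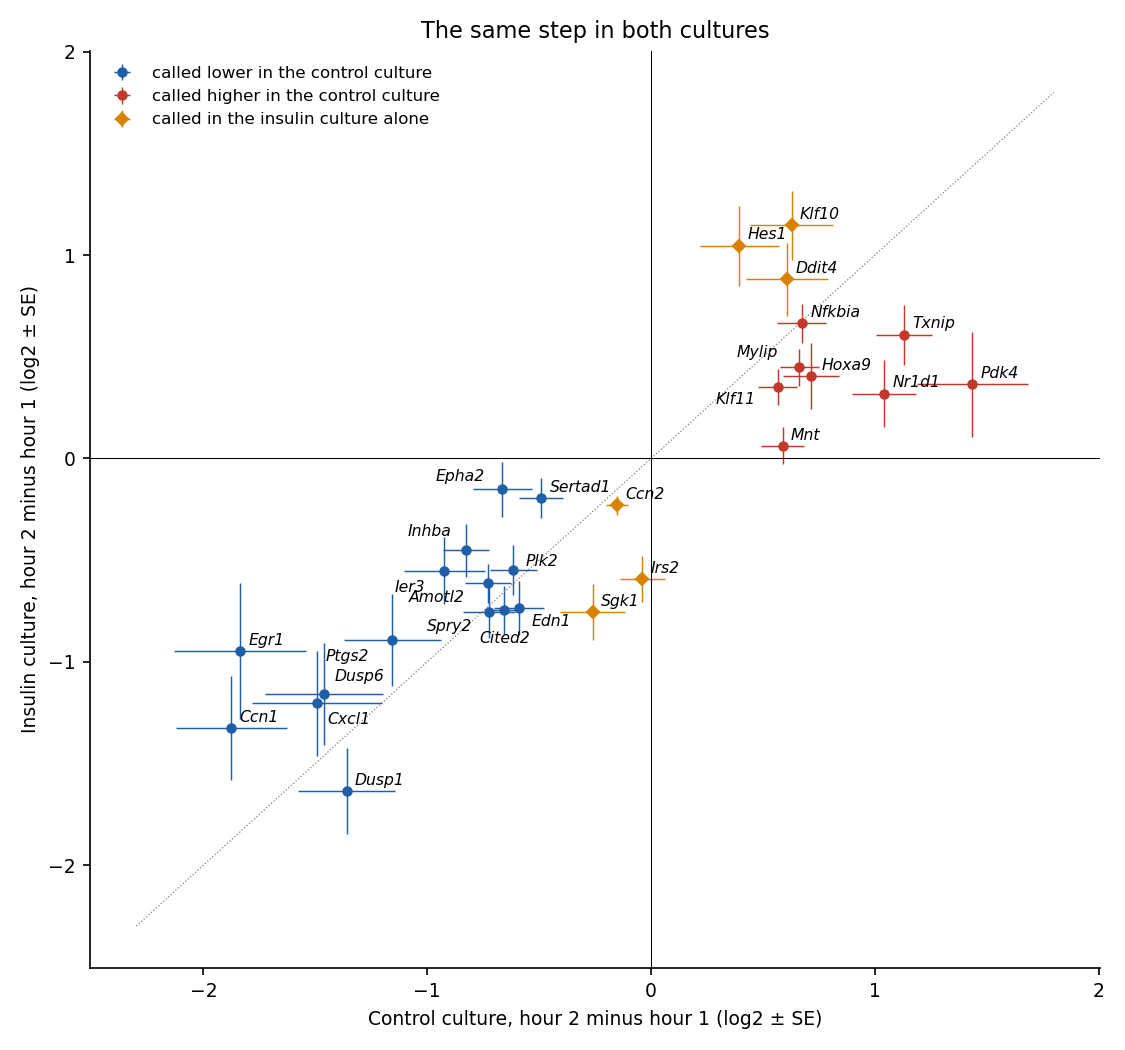
Difference between hour 2 and hour 1 in the control culture (x axis, log2 ± SE) and in the insulin culture (y axis, log2 ± SE) for the 15 genes called lower (blue) and the 8 called higher (red) in the control culture and the 6 called in the insulin culture alone (orange), with a dotted line of equality. All blue and red points have the same sign in both cultures, and the 8 red points lie below the line.

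Of 714 genes on 34 lists, 13 fell and 6 rose, against 0.129% and 0.0688% of all genes, and 22 lists had no call. At those shares a list of this size is not expected to hold a call, so the lists without one are given for their medians. The lists were drawn up with earlier results of these data known. More calls on them than over all genes are therefore not a separate result. No call was made among 41 cytosolic ribosomal proteins (median 0.02), 52 subunits of oxidative phosphorylation (0.03), 32 proteasome genes (0.02), 63 genes of ribosome biogenesis (−0.01), 33 genes of the insulin signalling core (0.01) or 21 genes of cholesterol synthesis (0.06). The 25 genes of the ATF4 and integrated stress response had a median of 0.01, with *Ddit4* their largest value, and the 25 chaperone genes one of −0.02. The mRNA decay factors (36 genes, median −0.01) included no call either. Of 15 p53 targets *Plk2* was the single call, and *Bbc3*, which promotes apoptosis, was at 0.47 ± 0.11 (adjusted p = 0.193).

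**Figure D5:**
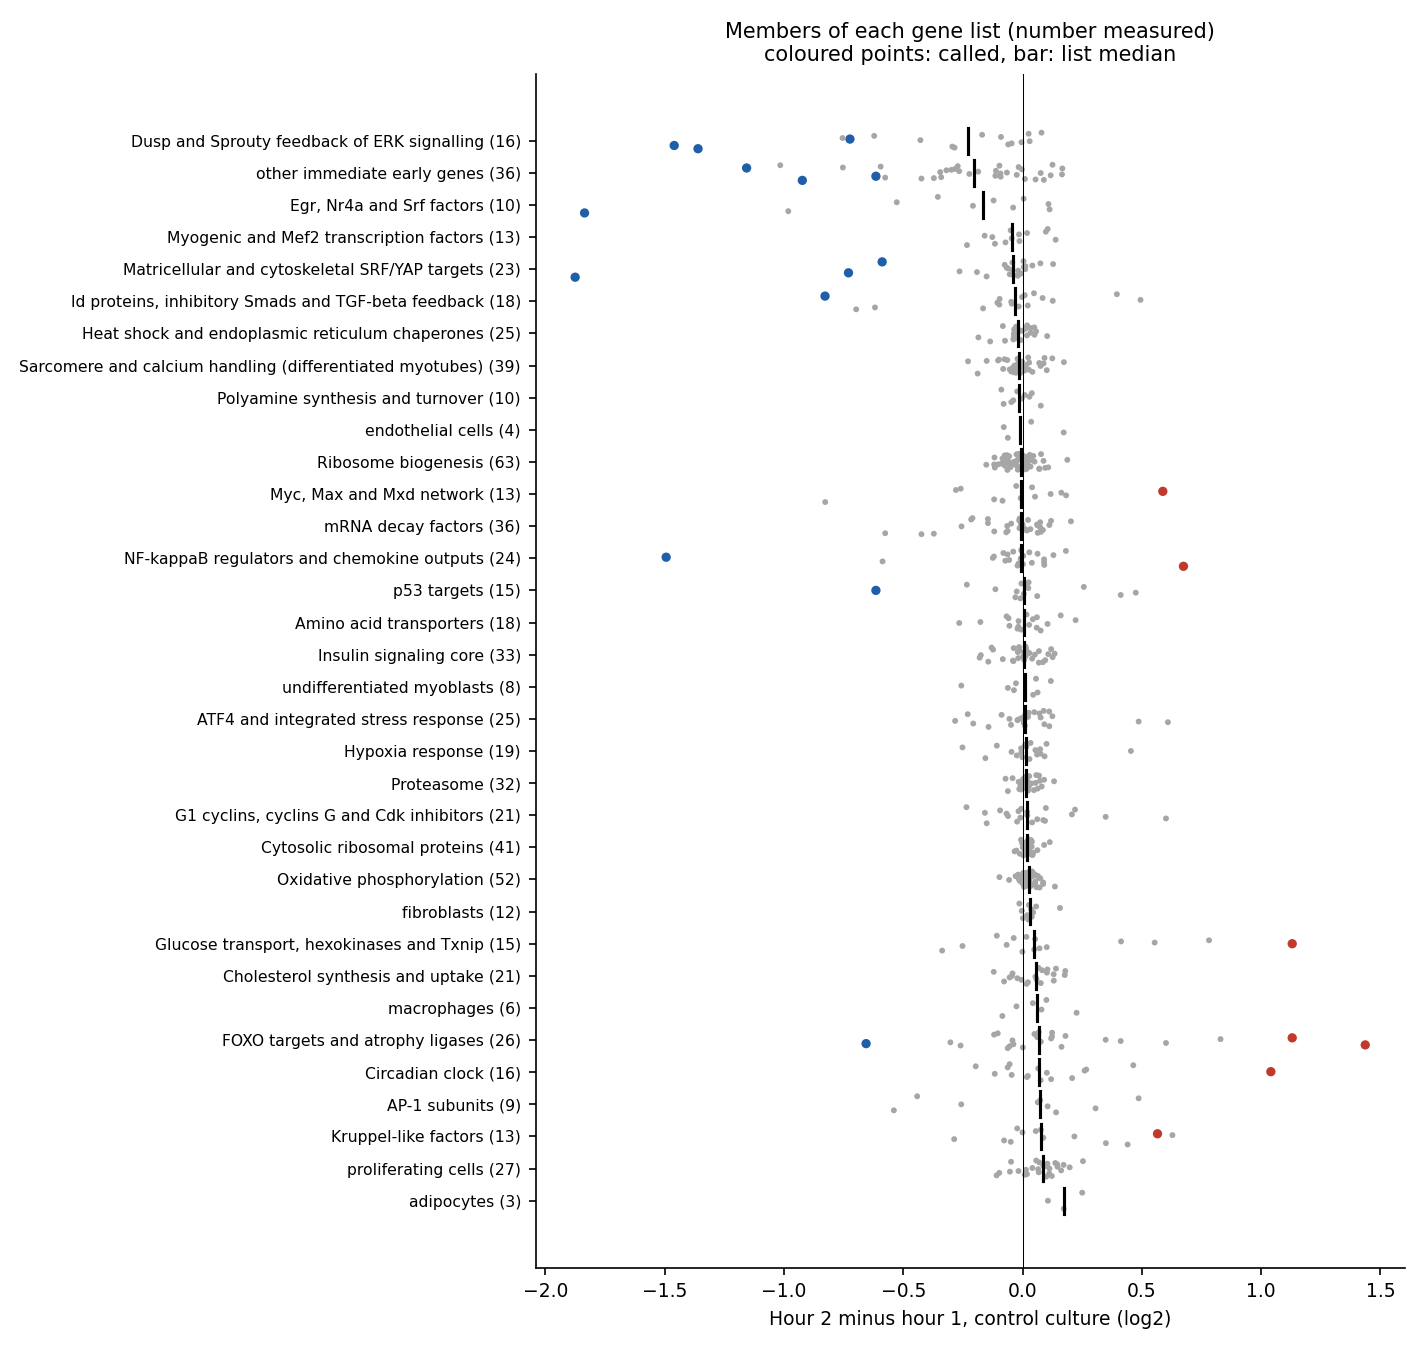
Difference between hour 2 and hour 1 of the control culture (x axis, log2) for every measured gene of the 34 lists (y axis, with the number measured), blue for genes called lower, red for genes called higher and grey for the rest, with a black bar at each list's median. The lists of ERK feedback, other immediate early genes and Egr factors have the lowest medians (−0.23, −0.20 and −0.16), and most others are centred near 0.

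The arrays carried the markers of differentiated muscle, and none of these was called. Of the list of sarcomere and calcium-handling genes 39 were measured with none called and a median of −0.02, and their summed level ran from 16.4 to 17.2 (log2) at hour 1 and from 16.3 to 17.2 at hour 2. Markers of macrophages (6 of 12 measured), endothelial cells (4 of 12), adipocytes (3 of 11) and fibroblasts (12 of 12) had no call either. Summed macrophage markers ran from 8.74 to 8.96 at hour 1 and from 8.83 to 9.13 at hour 2, and endothelial ones from 8.70 to 8.90 and from 8.65 to 8.91. Adipocyte markers ran from 9.87 to 10.7 and from 9.95 to 10.7. Fibroblast markers ran from 16.3 to 16.4 at both hours, while the muscle list reached 17.2. These sums cover 12 and 39 genes, so they do not compare the 2 cell types. Markers of proliferating cells (13.9 to 14.6 and 14.1 to 14.7) and of undifferentiated myoblasts (13.1 to 13.5 and 13.1 to 13.6) were present too, without a call. In a culture, less RNA per cell and fewer cells of a kind cannot be told apart, and neither was measured.

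Among the called probe sets outside the 23 genes, 2 were the other *Dusp6* probe sets. Another 4, all higher, have no single gene symbol in the annotation (none or several), the largest at 0.95 ± 0.19 (adjusted p = 0.0382). The remaining one, a probe set of *Zfp503*, rose by 0.50 (adjusted p = 0.0334), whereas the brightest probe set of *Zfp503* was at 0.47 without passing (adjusted p = 0.177).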

How the data were processed

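RNA of L6 myotubes was measured on 53 Affymetrix rat expression arrays, 27 of them from the control culture. Per the labels and the methods, the authors subtracted background, quantile normalized and summarised the probes by RMA, and the deposited values are log2 intensities for 31099 probe sets, used here as they stand. Quantile normalization forces 1 distribution on all arrays (array medians 6.30 to 6.37), so a shift common to all genes cannot be seen. Precision is limited by having 3 arrays per hour. Symbols came from the platform annotation: 20832 probe sets have 1 symbol, 436 several and 9831 none.

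Probe sets with a mean over the 53 arrays of at least 5 (log2), without the 57 controls of the manufacturer, were tested (22143). In R 4.3.3 and limma 3.58.1, a linear model of the 27 control arrays held 1 mean per hour and the repeat letter as a block (16 residual degrees of freedom), with the prior variance following the level. The insulin step and the difference of steps came from all 53 arrays with 6 blocks, 1 per culture and letter. P-values were adjusted over all tested probe sets (Benjamini-Hochberg), and "called" means an adjusted p under 0.05. A gene was represented by its brightest probe set. The letters were taken to pair the arrays, since deviations from the hour means correlated by 0.75, 0.67 and 0.73 within a, b and c. Between letters the values were −0.51 to −0.20. The deviations of an hour sum to 0, so these negative values come with the centring and are not separate evidence. The model was tested on simulated data.

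The genes described at length are the 15 largest falls and the 10 largest rises (8 existed) called with the same sign in every repeat, up to 4 called members of each list or, with none called, the 2 largest as values, and any gene whose calls differ by probe set. Other genes were named after their values were seen. The comparison, its members and the 34 gene lists were chosen with earlier results of these data known. Alternatives changed the block, the filter (none, or at least 6), the prior variance, the centring, the arrays in the fit, the probe set rule and the repeats. A block of letter and hour shared by the cultures was added after the data were seen.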

Additional observations from a re-analysis of the deposited data

How the results depend on the processing

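The number of calls depended on the block and on the repeats more than on the treatment of the values. Without the replicate block, 2 probe sets were called lower and 1 higher between hours 1 and 2 of the control culture (264 at an unadjusted p under 0.05, against 714 with it), 2 and 2 between time 0 and hour 2 (19 and 19 with it), and 0 and 1 in the insulin culture (9 and 5 with it; 180 at an unadjusted p under 0.05). The 6 arrays of hours 1 and 2 fitted on their own gave 94 lower and 51 higher, with 2 residual degrees of freedom and a prior variance pooled over probe sets. Leaving out 1 repeat gave 7 to 13 lower and 4 to 5 higher for the control step, 5 to 27 lower and 4 to 9 higher against time 0, and 1 to 6 lower and 1 to 2 higher for the insulin step. All other settings stayed within 1.5 times of the main counts, and the difference of the 2 cultures' steps had 0 calls under each setting, a replicate block of letter and hour shared by the cultures included (0 lower and 0 higher). Of the 23 genes, 22 or 23 were still called under the other filters, centring, the 6 arrays alone and the mean of a gene's probe sets (*Cited2* was lost in the last, and *Pdk4* had no value under the stricter filter). *Ier3* and *Sertad1* were lost without the trend of the variance, and *Edn1* and *Hoxa9* with all 53 arrays. *Ier3*, *Klf11*, *Nfkbia*, *Ptgs2* and *Sertad1* were called in none of the fits that left out a repeat.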

Other observations

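Over all 22143 tested probe sets the step from hour 1 to hour 2 had little in common between the repeats. The differences of repeat a correlated with those of b by 0.03 and with those of c by 0.09, and b with c by 0.05 (Pearson, across probe sets, which are not independent replicates), and their SD was 0.20, 0.19 and 0.20 (log2). The 23 called genes, chosen in part for having the same sign in all 3 repeats, are few against that spread.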
